A study of Mus musculus with 32 samples.

Results

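The genes described are 9 members of the Notch pathway in mouse cardiac fibroblasts, of 55414 gene identifiers in the count table: the receptors Notch1, Notch2 and Notch3, the ligand Jag1, the target genes Hes1, Hey1, Hey2 and Heyl, and Nrarp. They were chosen by name, with earlier results of these data known. They were found by matching Ensembl identifiers to GENCODE symbols, and all 9 passed the filter on low counts. Notch receptors are single-pass membrane proteins that are activated when a Delta or Jagged ligand on a neighbouring cell pulls on them. An ADAM protease and then the gamma-secretase complex cut the receptor, and the released intracellular domain enters the nucleus, binds the DNA-binding protein RBPJ with a Mastermind coactivator and switches on target genes. Hes and Hey proteins, the best known of these targets, are basic helix-loop-helix repressors, and in vessels Notch3 and Heyl are known as genes of pericytes and smooth muscle cells. Nrarp is a small ankyrin-repeat protein that binds the intracellular domain and limits its activity.

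The cells were cardiac fibroblasts of mice tagged C57BL/6J_Pkm2fl/fl, a genotype that all groups share and that flanks part of the gene for pyruvate kinase, a glycolytic enzyme, with loxP sites. The study asked how a change of the enzyme's isoform alters the transcriptome. The cells were used at passage 1 after growth in medium with serum and 20 ng/ml bFGF. They were transduced with iCre, a form of Cre recombinase, or with LacZ as the control, and RNA was taken after 24 h with or without a stimulus. Within each vector the titles name 3 stimuli, FGF (basic fibroblast growth factor, bFGF, 20 ng/ml), ILB (interleukin-1 beta, IL-1b, 15 ng/ml) and TGFB (transforming growth factor beta, TGFb, 10 ng/ml), and the unstimulated condition SS. SS is not spelled out in the labels, whose protocol text says that the stimuli were given in serum-starved medium. There are 8 groups of 4 libraries, numbered 1 to 4, and 32 libraries in all. The labels do not say whether libraries of a group came from separate mice or cultures, so p-values measure the spread between these libraries, which may be technical.

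In the 16 LacZ libraries the treatment tag names another condition than the title does, while in the 16 iCre libraries tag and title match. The libraries titled LacZ_FGF carry the tag iCre_TNFa, LacZ_ILB the tag LacZ_Con, LacZ_TGFB the tag LacZ_IL1b and LacZ_SS the tag LacZ_bFGF. Groups follow the titles, and each response is given for both vectors. The protocol text speaks of TAK1fl/fl mice and lists a TNFa arm, against a Pkm2fl/fl tag and no TNFa title. Total counts ran between 20736203 and 34995038 per library. Pkm, counted as a whole gene with no separation of its forms, differed between iCre and LacZ by a log2 value of -0.50 ± 0.11 (SE; adjusted p = 0.0744) over the 4 conditions, and with the library number as a block by -0.51 (adjusted p = 0.00381), both from edgeR's quasi-likelihood test. Libraries of the same number deviated together from their group means, and those numbered 4 stood apart in most groups. The summed level of 8 fibroblast markers was 24230 to 65860 CPM in the 8 libraries numbered 4. It was 56500 to 74430, 44790 to 75990 and 51170 to 60530 CPM in those numbered 1, 2 and 3. Number 4 had the lowest sum of each group except with TGFb. There it had 57380 CPM in iCre and 65860 CPM in LacZ cells, inside the range of its group. The sum of 9 leukocyte markers was 31.7 to 86.96 CPM in libraries numbered 4, against 191 to 424, 69.7 to 169.7 and 368 to 942 CPM in those numbered 1, 2 and 3. All 8 fibroblast markers were detected in every library, and the defining endothelial marker Pecam1 and cardiomyocyte marker Myh6 had medians of 0.552 and 0 CPM. Other markers on those lists were detected: the endothelial receptor gene Tek had a median of 9.33 CPM and a highest value of 31.6 CPM, the endothelial factor gene Erg reached 26.8 CPM, and the cardiac troponin gene Tnnt2 had a median of 17.04 CPM and reached 125.0 CPM. In bulk samples, fewer cells of a type and less RNA per cell cannot be told apart.

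Levels are given as CPM, read counts scaled to a common library size with TMM factors, and levels between genes as CPM per kilobase of summed exon length (RPKM). In SS cells the most abundant members per length were the receptor Notch3, at 42.9 RPKM in iCre cells and 47.3 RPKM in LacZ cells, and its ligand Jag1, at 33.3 and 36.3 RPKM. Notch2 followed with 19.8 and 19.5 RPKM, and Hes1 with 15.7 and 20.1 RPKM. The remaining members were lower: Notch1 had 3.88 and 4.24 RPKM in iCre and LacZ SS cells, Heyl 2.83 and 3.86, Hey2 1.70 and 2.41, and Hey1 0.670 and 1.09 RPKM. These are group means, and their order did not hold in the SS libraries numbered 4. There Notch2 had 27.2 and 24.4 RPKM in iCre and LacZ cells, against 9.72 and 14.3 RPKM for Notch3. Nrarp was near the detection limit, with 261 counts over the 32 libraries. The antisense gene Gm38287 overlaps 2051 of its 2582 exon bases, and without a stated strand setting reads of the pair cannot be told apart. Gm38287 itself was given 2 counts. Antisense genes also overlap Notch1 and Notch3: 0610009E02Rik covers 1068 exon bases of Notch1 and had 847 counts to its 41131, and Gm17276 covers 488 of Notch3 and had 281 to its 163249.

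In the GRCm38 build, with GENCODE gene models, Notch1 is at chr2:26457903-26516663 (minus strand), Notch2 at chr3:98013527-98150361 (plus strand) and Notch3 at chr17:32120820-32166852 (minus strand). The ligand gene Jag1 is at chr2:137081456-137116644 (minus strand). The targets are at chr16:30064384-30067796 (plus strand) for Hes1, chr3:8663359-8667256 (minus strand) for Hey1, chr10:30832359-30842801 (minus strand) for Hey2, chr4:123233556-123249875 (plus strand) for Heyl and chr2:25180758-25183339 (plus strand) for Nrarp. Values refer to whole genes, that is, to all annotated exons including untranslated parts. Ordered by mean CPM over the 8 groups, Notch3, Jag1, Hey1 and Hey2 were highest in LacZ SS cells, Notch1, Hes1 and Nrarp in LacZ bFGF cells, Heyl in LacZ TGFb cells and Notch2 in iCre SS cells. Jag1, Hes1, Hey1, Hey2, Heyl and Nrarp were lowest in the IL-1b groups, and Notch1 and Notch3 in the TGFb groups. Libraries of neighbouring groups in that order overlapped for every member except at 3 steps: between LacZ IL-1b and the next higher group, which was iCre SS for Notch1, iCre TGFb for Hes1 and iCre bFGF for Heyl.

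**Figure D1:**
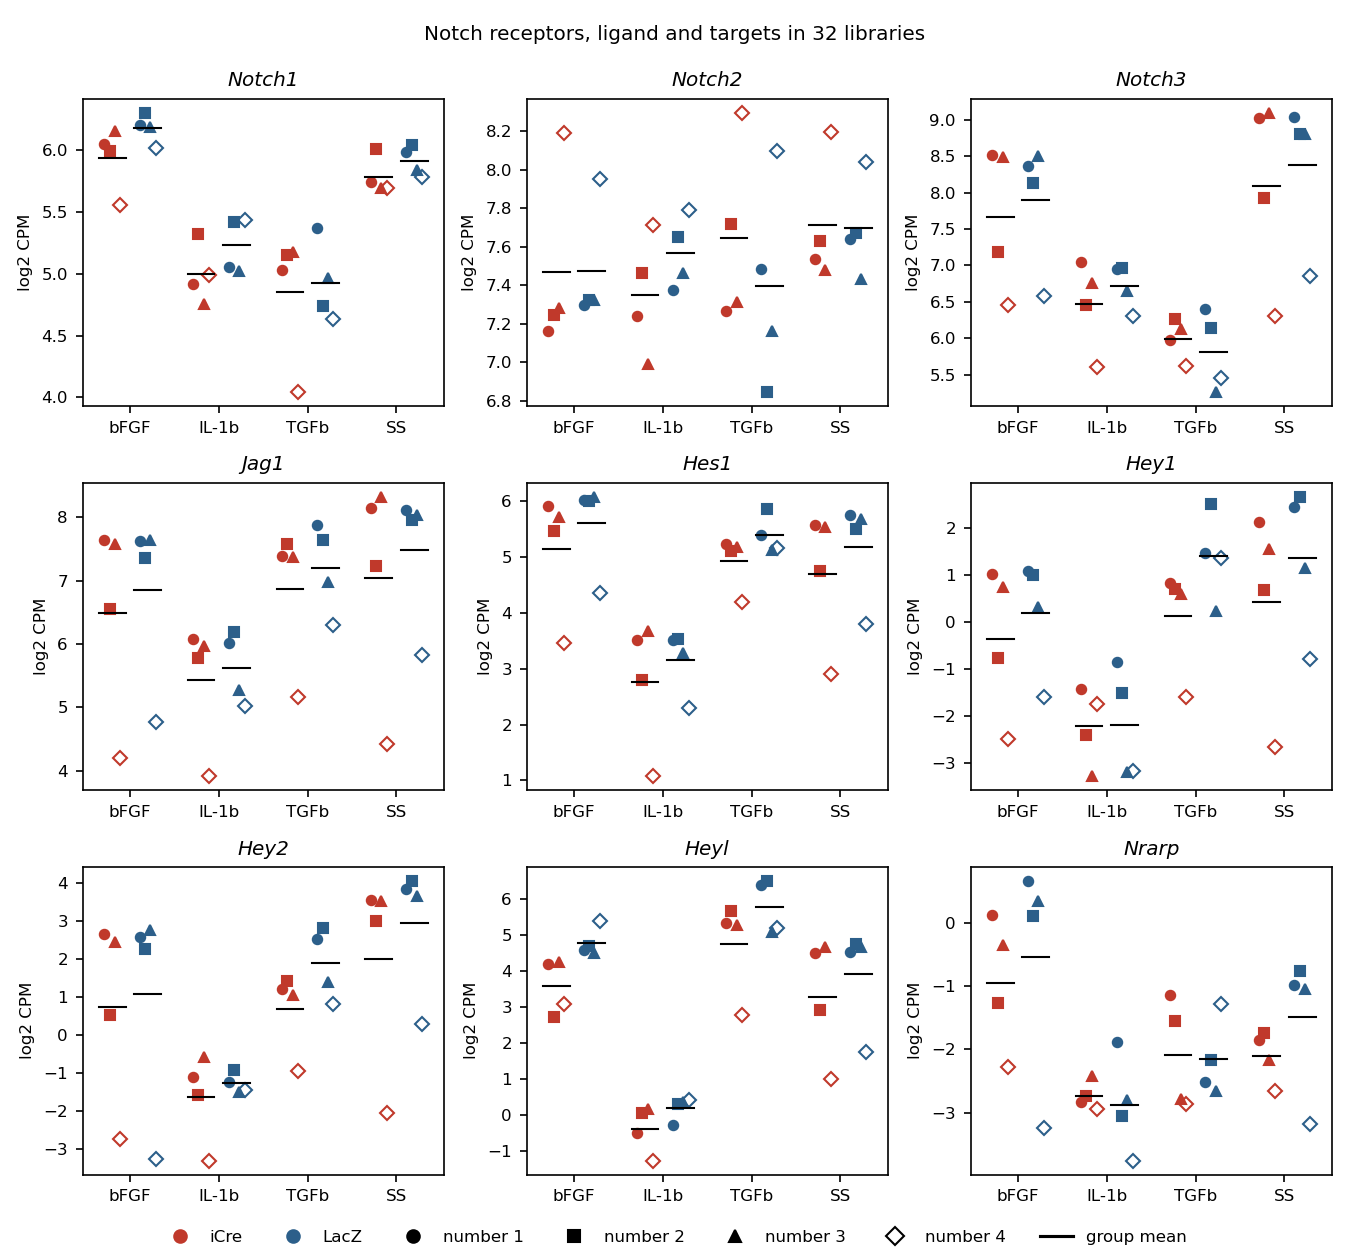
Level of each of the 9 genes in every library, on a log2 CPM axis that differs between panels, by stimulus (bFGF, IL-1b, TGFb, SS) with iCre (red) left of LacZ (blue); the symbol gives the library number, open diamonds are number 4, and the bar is the mean of 4 libraries. Under IL-1b the Heyl libraries of both vectors lie below all SS libraries of their vector, and Notch2 is highest in number 4 in each group.

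With IL-1b most of the 9 genes were lower than in SS cells, in both vectors. By edgeR's quasi-likelihood test, with p-values adjusted by Benjamini-Hochberg over 16760 genes, 6 of the 9 genes were lower in iCre IL-1b than in iCre SS cells and 6 of 9 in LacZ IL-1b than in LacZ SS cells, in each case Notch1, Notch3, Hes1, Hey1, Hey2 and Heyl. No member was higher. Of all tested genes, 6.84% were called lower in iCre and 8.13% in LacZ cells. Because the 9 genes were chosen with earlier results of these data known, this comparison is a description and no test of the set. The median log2 fold change of the 9 genes was -1.95 in iCre and -2.07 in LacZ cells, beside -0.022 and -0.023 over all tested genes. The responses of the vectors did not differ detectably: the difference in log2 fold change, iCre minus LacZ, lay between -0.23 and 1.07 over the 9 genes, with an adjusted p of 1.0 for each and standard errors of 0.26 to 1.59.

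The 3 Hey genes had the largest falls in log2 terms. Heyl, a repressor of the Hey family, had 0.628, 0.950, 1.05 and 0.338 CPM in iCre IL-1b libraries, against 22.9, 7.46, 25.6 and 1.93 CPM in iCre SS libraries. Heyl had 0.751, 1.15, 1.20 and 1.25 CPM in LacZ IL-1b libraries, against 23.1, 27.1, 25.5 and 3.30 CPM in LacZ SS libraries. The groups did not overlap in either vector, and the log2 fold change was -4.28 ± 0.74 (SE; adjusted p = 0.0002) in iCre and -4.17 ± 0.73 (SE; adjusted p = 0.000182) in LacZ cells. The share of all tested genes without overlap of groups is not given here for any stimulus, so such separation only describes the genes named. Hey2 rested on few reads under IL-1b, 12, 7, 21 and 1 counts in iCre and 9, 10, 8 and 8 in LacZ libraries, against 287, 214, 310 and 6 counts in iCre SS and 329, 352, 302 and 32 in LacZ SS libraries. Every LacZ IL-1b library was below every LacZ SS library for Hey2, while in iCre cells the SS library numbered 4 lay among the IL-1b libraries. The log2 fold change of Hey2 was -4.58 ± 1.20 (SE; adjusted p = 0.00937) in iCre and -4.98 ± 1.23 (SE; adjusted p = 0.00462) in LacZ cells. Hey1, the least abundant of the family, was counted 9, 3, 1 and 8 times in iCre IL-1b and 12, 6, 1 and 1 times in LacZ IL-1b libraries, against 106, 41, 77 and 3 in iCre SS and 123, 133, 52 and 14 in LacZ SS libraries. Its log2 fold change was -3.68 ± 1.04 (SE; adjusted p = 0.0156) in iCre and -4.11 ± 1.06 (SE; adjusted p = 0.00646) in LacZ cells, with overlap between iCre groups through number 4 and none between LacZ groups.

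Hes1, a repressor of the Hes family, also fell. It had 11.4, 6.88, 12.8 and 2.03 CPM in iCre IL-1b libraries, against 47.7, 26.9, 46.2 and 7.40 CPM in iCre SS libraries, and 11.3, 11.5, 9.60 and 4.82 CPM in LacZ IL-1b libraries, against 53.7, 45.2, 51.04 and 13.9 CPM in LacZ SS libraries. Apart from the SS library numbered 4 in iCre cells, all IL-1b values were below the SS values of their vector. The log2 fold change of Hes1 was -1.95 ± 0.57 (SE; adjusted p = 0.0184) in iCre and -2.14 ± 0.57 (SE; adjusted p = 0.00856) in LacZ cells. Nrarp had 2, 2, 4 and 2 counts in iCre IL-1b and 5, 1, 2 and 0 in LacZ IL-1b libraries, and log2 fold changes of -1.0 ± 0.91 in iCre and -2.07 ± 0.91 (SE) in LacZ cells. It passed the threshold in neither vector (adjusted p = 0.518 and 0.114), and with the library number as a block only in LacZ cells, with adjusted p = 0.0394 there and 0.369 in iCre cells.

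Of the receptors, Notch3 had 132, 87.3, 108 and 48.6 CPM in iCre IL-1b libraries, against 519, 242, 548 and 78.7 CPM in iCre SS libraries, and 123, 124, 99.98 and 78.9 CPM in LacZ IL-1b libraries, against 523, 445, 447 and 115 CPM in LacZ SS libraries. Within each number the IL-1b library was lower than the SS library in both vectors, although SS libraries numbered 4 lay within the IL-1b range. Its log2 fold change was -1.88 ± 0.53 (SE; adjusted p = 0.0148) in iCre and -1.84 ± 0.53 (SE; adjusted p = 0.0139) in LacZ cells. Notch1 fell by a smaller amount and with no overlap of groups, to 30.1, 39.9, 26.9 and 31.6 CPM in iCre IL-1b libraries, against 53.5, 64.4, 51.6 and 51.6 CPM in iCre SS libraries. Notch1 had 33.2, 42.7, 32.5 and 43.3 CPM in LacZ IL-1b libraries, against 63.3, 65.8, 57.2 and 54.9 CPM in LacZ SS libraries, and the log2 fold changes were -0.78 ± 0.19 (SE; adjusted p = 0.0047) in iCre and -0.67 ± 0.19 (SE; adjusted p = 0.0117) in LacZ cells. Notch2 did not pass the threshold, with -0.37 ± 0.27 (SE; adjusted p = 0.396) in iCre and -0.14 ± 0.26 (SE; adjusted p = 0.782) in LacZ cells. With the number as a block it passed in iCre cells, at -0.35 (adjusted p = 0.0393), and not in LacZ cells, at -0.12 (adjusted p = 0.502).

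The ligand Jag1 had 67.4, 54.5, 62.7 and 14.9 CPM in iCre IL-1b libraries, against 284, 151, 320.4 and 21.4 CPM in iCre SS libraries, and 64.8, 73.1, 38.6 and 32.4 CPM in LacZ IL-1b libraries, against 276, 249.5, 263 and 56.8 CPM in LacZ SS libraries. Again the SS libraries numbered 4 were as low as IL-1b libraries, and the log2 fold changes of -1.96 ± 0.74 (SE; adjusted p = 0.0718) in iCre and -2.02 ± 0.74 (SE; adjusted p = 0.057) in LacZ cells missed the threshold. With the library number as a block they were -1.75 (adjusted p = 0.000963) and -1.71 (adjusted p = 0.00101), and without the libraries numbered 4 -2.02 (adjusted p = 7.56e-05) and -2.15 (adjusted p = 3.06e-05). DESeq2 gave an adjusted p of 0.0248 in iCre and 0.0177 in LacZ cells. The block took the count of members called lower to 8 of 9 in iCre and 8 of 9 in LacZ cells, beside 14.1% and 15.6% of all tested genes under that model. Without number 4 it was 7 of 9 in iCre and 8 of 9 in LacZ cells, beside 11.6% and 13.3%. Leaving out the iCre SS library numbered 1 brought the count in iCre cells to 3, since Notch3, Hes1 and Hey1 then had adjusted p = 0.0541, 0.0625 and 0.0571. Notch3 also missed the threshold without iCre SS 3 (0.0502), Hes1 without iCre IL-1b 2 (0.0515) or 4 (0.055), and Hey1 without iCre IL-1b 3 (0.0579).

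Some markers of other cells were also called lower under IL-1b, while most of those tested passed in neither vector. Of 7 tested markers of mural cells, the pericytes and smooth muscle cells of vessels, 3 were called lower under IL-1b in each vector: Cspg4, Mcam and Myh11. The other 4 passed in neither vector, with log2 fold changes in iCre and LacZ cells of 0.43 and 0.06 for Rgs5, 1.32 and -0.58 for Kcnj8, 0.64 and -0.15 for Abcc9, and -0.35 and -0.71 for Des. The summed level of the 8 mural markers was 37.8 to 450.3 CPM in iCre IL-1b and 32.7 to 146 CPM in LacZ IL-1b libraries, against 81.4 to 388 CPM in iCre SS and 79.2 to 241 CPM in LacZ SS libraries, so the sums overlap. Among mural markers Higd1b had a median of 0 CPM. Of 4 smooth muscle and myofibroblast markers, 1 was called lower in iCre and 3 in LacZ cells, with sums of 221 to 351 CPM in iCre IL-1b and 261 to 479 CPM in LacZ IL-1b libraries, against 518 to 854 and 716 to 1629 CPM in the SS libraries of iCre and LacZ cells. Of 8 fibroblast markers 1 was called higher and 0 lower in each vector. Of 3 tested cardiomyocyte markers 1 was called lower in each vector, Tnnt2, with -4.05 (adjusted p = 0.000114, edgeR) in iCre and -4.12 (adjusted p = 6.99e-05) in LacZ cells. The sums of the 6 cardiomyocyte markers were 4.29 to 5.42 CPM in iCre IL-1b and 4.27 to 7.37 CPM in LacZ IL-1b libraries, against 22.5 to 91.9 and 44.6 to 128 CPM in the SS libraries of iCre and LacZ cells, with no overlap. Tnnt2 averaged 42.96 and 78.08 CPM in iCre and LacZ SS cells, so these sums mainly restate its fall. Tnni3, the next highest of the list, averaged 1.54 and 1.45 CPM in SS and 1.73 and 1.15 CPM with IL-1b. Of 6 tested endothelial markers 0 were called in iCre and 1 lower in LacZ cells, Tek with -1.19 (adjusted p = 0.00494, edgeR), and of 9 leukocyte markers 0 in either vector. The part of these markers' cells in the fall of the Notch genes was not tested.

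**Figure D2:**
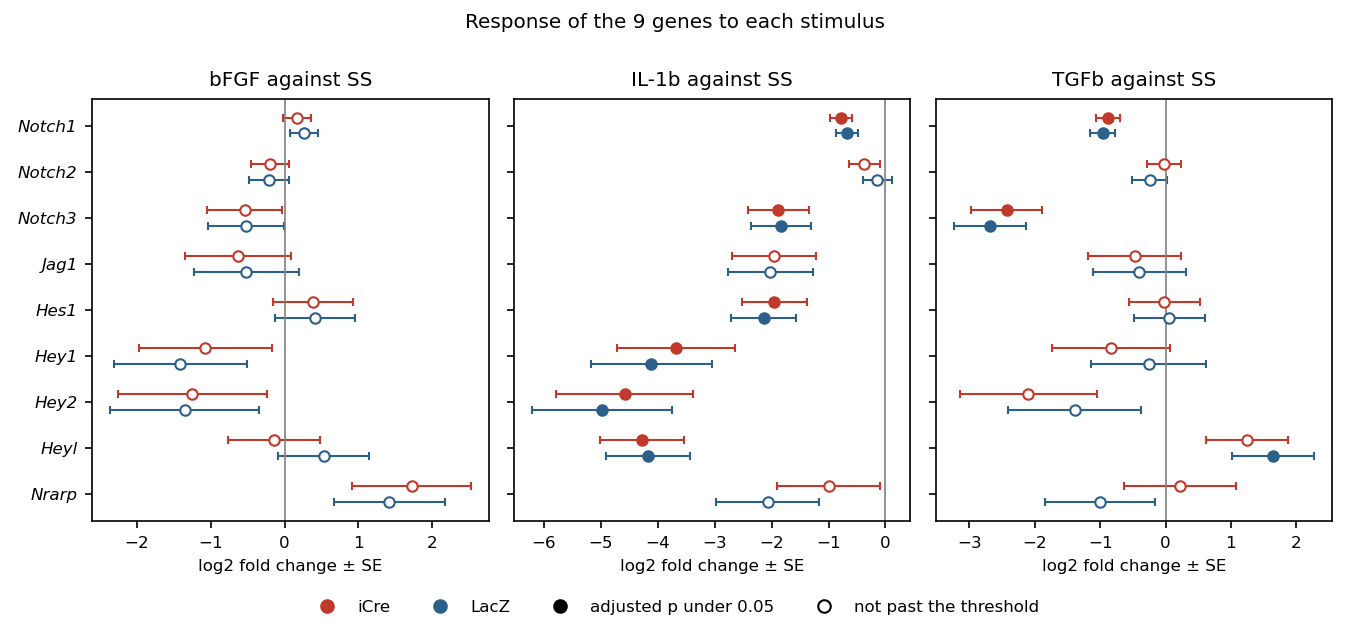
Log2 fold change (with its standard error) of each of the 9 genes for bFGF, IL-1b and TGFb against SS, with n = 4 libraries a group, for iCre (red, above) and LacZ (blue, below); filled points have an adjusted p under 0.05. Heyl, Hey2 and Hey1 lie furthest to the left under IL-1b, and under TGFb Notch3 lies to the left and Heyl to the right of 0.

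With TGFb the 9 genes went different ways. Notch1 and Notch3 were lower in both vectors, Heyl was higher in LacZ cells, and the other members did not pass the threshold. That is 2 of 9 genes in iCre and 3 of 9 in LacZ cells, where 38.3% and 46.3% of all tested genes were called in either direction, so the count is no larger a share than among all genes. Notch3 had 62.9, 76.5, 69.6 and 49.05 CPM in iCre TGFb libraries, against 519, 242, 548 and 78.7 CPM in iCre SS libraries. Notch3 had 84.7, 70.2, 38.2 and 43.7 CPM in LacZ TGFb libraries, against 523, 445, 447 and 115 CPM in LacZ SS libraries. Every TGFb library was below every SS library of its vector, number 4 included, and the log2 fold change was -2.43 ± 0.54 (SE; adjusted p = 0.00084) in iCre and -2.69 ± 0.55 (SE; adjusted p = 0.000231) in LacZ cells. Notch1 had 32.5, 35.5, 36.03 and 16.4 CPM in iCre TGFb libraries, against 53.5, 64.4, 51.6 and 51.6 CPM in iCre SS libraries. In LacZ cells Notch1 averaged 30.9 ± 7.35 CPM with TGFb and 60.3 ± 5.11 CPM in SS (SD, n = 4 each). It too fell without overlap, by 0.88 ± 0.19 (SE; adjusted p = 0.000584) in iCre and 0.96 ± 0.19 (SE; adjusted p = 0.000152) in LacZ cells on the log2 scale. How common such separation was among all tested genes with TGFb is not given here. Notch2 had log2 fold changes of -0.03 ± 0.26 (SE; adjusted p = 0.937) in iCre and -0.24 ± 0.27 (SE; adjusted p = 0.478) in LacZ cells and passed in neither. With total counts alone for scaling, the median of all genes was -0.268 in iCre and -0.258 in LacZ cells.

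Among the targets, Heyl was higher with TGFb in LacZ cells. It had 40.6, 50.9, 38.98 and 6.75 CPM in iCre TGFb libraries, against 22.9, 7.46, 25.6 and 1.93 CPM in iCre SS libraries, and 84.5, 91.3, 34.1 and 36.4 CPM in LacZ TGFb libraries, against 23.1, 27.1, 25.5 and 3.30 CPM in LacZ SS libraries. Every LacZ TGFb library was above every LacZ SS library, while the iCre TGFb library numbered 4 lay within the iCre SS range. The log2 fold change of Heyl was 1.25 ± 0.63 (SE; adjusted p = 0.119) in iCre and 1.64 ± 0.63 (SE; adjusted p = 0.0351) in LacZ cells, and the difference between the vectors was -0.39 ± 0.87 (SE; adjusted p = 1.0). With the block it was 1.30 (adjusted p = 0.0528) in iCre and 1.80 (adjusted p = 0.00779) in LacZ cells, and without number 4 1.23 (adjusted p = 0.0178) and 1.49 (adjusted p = 0.00476). The call in LacZ cells was lost without LacZ SS 1 or 4 or LacZ TGFb 1 or 2, with adjusted p = 0.0571, 0.0947, 0.0839 and 0.0997, with total counts alone for scaling (0.0513) and with no filter on low counts (0.0791).

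Hey2 had 2.24, 2.62, 1.99 and 0.446 CPM in iCre TGFb libraries, against 11.6, 7.99, 11.5 and 0.168 CPM in iCre SS libraries, with a log2 fold change of -2.10 ± 1.05 (SE; adjusted p = 0.117). In LacZ cells Hey2 had -1.39 ± 1.02 (SE; adjusted p = 0.27). Within numbers 1, 2 and 3 the TGFb library had less Hey2 than the SS library in both vectors, and number 4 went the opposite way in both. With the block Hey2 passed in iCre cells, at -1.76 (adjusted p = 0.0168), and not in LacZ cells, at -1.01 (adjusted p = 0.137), and without number 4 it passed in both, at -2.17 (adjusted p = 0.000199) and -1.49 (adjusted p = 0.00343). Hes1 averaged 31.6 ± 8.998 CPM in iCre TGFb and 42.8 ± 10.7 CPM in LacZ TGFb cells, against 32.02 ± 18.9 and 40.97 ± 18.4 CPM in iCre and LacZ SS cells (SD, n = 4 each). Its log2 fold change was -0.02 ± 0.54 (SE; adjusted p = 0.985) in iCre and 0.06 ± 0.54 (SE; adjusted p = 0.933) in LacZ cells, and the sign turned with the block in iCre cells and without number 4 in LacZ cells. The ligand Jag1 had -0.47 ± 0.71 (SE; adjusted p = 0.632) and -0.40 ± 0.71 (SE; adjusted p = 0.668), Hey1 -0.83 ± 0.90 (SE; adjusted p = 0.495) and -0.26 ± 0.88 (SE; adjusted p = 0.827), and Nrarp 0.22 ± 0.86 (SE; adjusted p = 0.863) and -1.0 ± 0.84 (SE; adjusted p = 0.341) in iCre and LacZ cells. None of these passed the threshold, and without number 4 Nrarp and Notch2 passed in LacZ cells, at -1.97 (adjusted p = 0.00699) and -0.38 (adjusted p = 0.0301), so that 6 of 9 genes did there and 4 of 9 in iCre cells, beside 52.6% and 48.5% of all tested genes.

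The TGFb and IL-1b responses share the SS libraries and are not independent of each other. Set side by side in iCre cells, the log2 fold changes with TGFb and IL-1b were -2.43 and -1.88 for Notch3, -0.88 and -0.78 for Notch1, -0.47 and -1.96 for Jag1, -0.02 and -1.95 for Hes1, and 1.25 and -4.28 for Heyl. No test of the difference between stimuli was run. The 4 smooth muscle and myofibroblast markers were called higher with TGFb in both vectors, with sums of 5012 to 7778 CPM in iCre TGFb and 4741 to 9732 CPM in LacZ TGFb libraries, against 518 to 854 and 716 to 1629 CPM in the SS libraries of iCre and LacZ cells. Of 8 fibroblast markers 4 were called lower in iCre and 5 in LacZ cells, and 1 higher in each, with sums of 54110 to 75990 CPM in iCre TGFb and 51170 to 67270 CPM in LacZ TGFb libraries, against 27100 to 65350 and 41760 to 71420 CPM in iCre SS and LacZ SS libraries. Of 9 leukocyte markers 0 were called with TGFb in either vector without the block (median log2 fold change -0.55 in iCre and -0.74 in LacZ cells), and 8 were called lower in each vector with it (medians -0.67 and -0.82). Their sums were 31.7 to 517 CPM in iCre TGFb and 39.3 to 368 CPM in LacZ TGFb libraries, against 60.3 to 699 and 68.8 to 545 CPM in the SS libraries of iCre and LacZ cells. Called higher and lower with TGFb were 1 and 1 of 7 mural markers in each vector, 1 and 1 of 6 endothelial markers in iCre and 2 and 1 in LacZ cells, and 0 and 1 of 3 cardiomyocyte markers in each vector. The part of these shifts in the Notch values was not tested.

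Notch4, the remaining receptor and not a member of the set, was higher with TGFb in both vectors. It had 112, 103, 123 and 12.3 CPM in iCre TGFb libraries, against 3.64, 3.10, 5.25 and 2.35 CPM in iCre SS libraries, and 146, 122, 131 and 69.4 CPM in LacZ TGFb libraries, against 4.04, 3.18, 12.1 and 2.91 CPM in LacZ SS libraries. All TGFb libraries were above all SS libraries of their vector, with the iCre library numbered 4 lowest, and the log2 fold change was 4.61 ± 0.68 (SE; adjusted p = 7.78e-06) in iCre and 4.39 ± 0.67 (SE; adjusted p = 6.84e-06) in LacZ cells. Per exon length, Notch4 made up a median of 32.6% (range 4.04% to 37.2%) of the summed RPKM of the 4 receptors in iCre TGFb libraries, against 0.717% (range 0.528% to 0.736%) in iCre SS libraries. The share of Notch3 was 20.6% (range 16.01% to 21.4%) in iCre TGFb libraries, against 65.6% (range 23.8% to 76.5%) in iCre SS libraries. In LacZ cells Notch4 had 39.6% (range 20.96% to 44.7%) with TGFb and 0.705% (range 0.5003% to 1.96%) in SS, and Notch3 17.4% (range 12.96% to 23.9%) with TGFb and 70.8% (range 33.2% to 73.4%) in SS. These shares are a description of RNA levels, with no test.

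**Figure D3:**
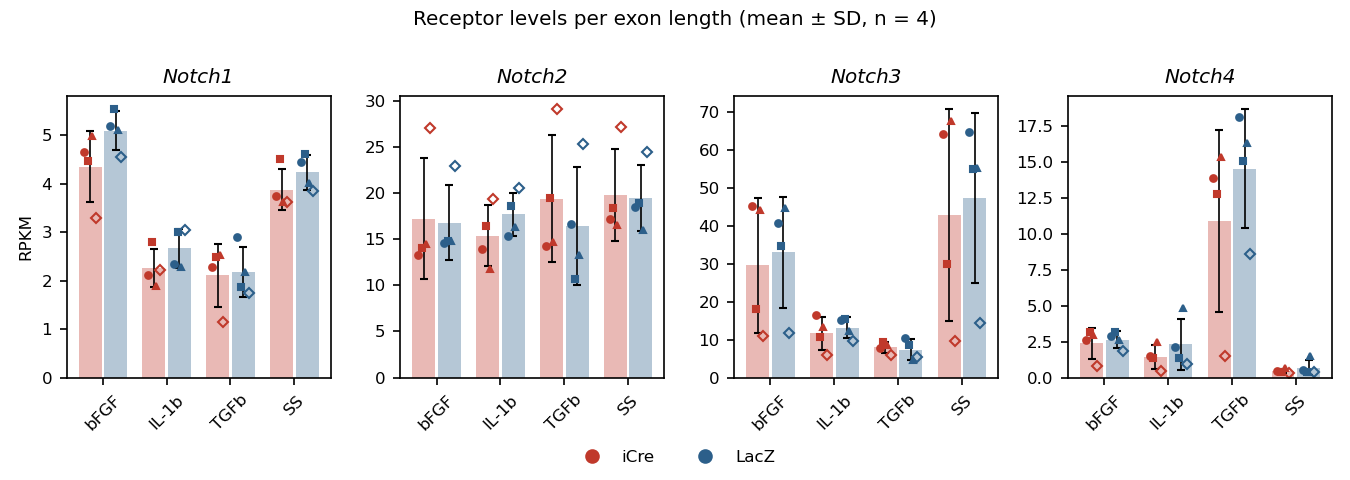
RPKM of the 4 Notch receptor genes by stimulus, with bars for the mean of 4 libraries, error bars for the SD, points for single libraries (open diamonds are number 4) and iCre (red) left of LacZ (blue); axes start at 0 and differ between panels. Notch3 averages 7.98 RPKM in iCre TGFb and 42.9 RPKM in iCre SS cells, while Notch4 averages 10.9 and 0.445 RPKM there.

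With bFGF, 0 of the 9 genes passed the threshold in either vector by edgeR, where 2.2% of all tested genes were called in iCre and 2.56% in LacZ cells. DESeq2 also called 0 members in each vector, but gave Nrarp no adjusted p in either. Of the 14746 and 14427 genes that it gave one in iCre and LacZ cells, it called 5.8% and 6.11%. At an unadjusted p under 0.05 edgeR listed 1, Nrarp, in iCre and 0 in LacZ cells. The receptors and Jag1 had log2 fold changes between -0.63 and 0.27. Nrarp had the highest, 1.72 ± 0.80 (SE; adjusted p = 0.277) in iCre and 1.42 ± 0.75 (SE; adjusted p = 0.352) in LacZ cells, from 26, 10, 23 and 5 counts in iCre bFGF and 38, 24, 32 and 1 in LacZ bFGF libraries, against 5, 6, 4 and 3 in iCre SS and 10, 11, 10 and 1 in LacZ SS libraries. In numbers 1, 2 and 3 of both vectors the bFGF library had the more Nrarp reads. Hey2 had -1.25 ± 1.01 (SE; adjusted p = 0.605) in iCre and -1.35 ± 1.01 (SE; adjusted p = 0.552) in LacZ cells. Without the libraries numbered 4 both passed in both vectors, Nrarp at 1.82 (adjusted p = 0.0161) and 1.44 (adjusted p = 0.042) and Hey2 at -1.25 (adjusted p = 0.0352) and -1.31 (adjusted p = 0.0376), so that 2 of 9 genes were called beside 15.9% of all tested genes in iCre and 9.92% in LacZ cells. Heyl under bFGF was highest of its group in the LacZ library numbered 4, at 41.9 CPM, where that number was lowest for the other targets.

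The study's main contrast, iCre against LacZ, called 0 of the 9 genes in each of the 4 conditions by edgeR, where 0.0% of all tested genes were called, and 0 by DESeq2, which also called 0.0%. At an unadjusted p under 0.05, edgeR listed 0 members in each condition, and 335, 251, 526 and 317 genes with bFGF, IL-1b, TGFb and in SS, where DESeq2 listed 381, 283, 566 and 363. These counts of genes are below the share of 0.05 that chance alone would give among the tested genes. Averaged over conditions the contrast called 0 of 9 by both tools, beside 0.107% of all genes by edgeR and 0.509% by DESeq2, and 1 at an unadjusted p under 0.05. That gene was Heyl, with -0.74 ± 0.33 (SE; adjusted p = 0.654). Within conditions the log2 difference of Heyl was -1.12 with bFGF, -0.56 with IL-1b, -0.85 with TGFb and -0.45 in SS. With bFGF the iCre and LacZ groups did not overlap for Heyl, at 18.3, 6.56, 19.2 and 8.47 CPM in iCre against 23.9, 25.9, 22.4 and 41.9 CPM in LacZ libraries, as for 1.07% of all tested genes. Of 16 pairs of libraries that share a condition and a number, Heyl was lower in iCre in 14, and the mean differences were -0.42, -1.23, -0.05 and -1.79 for numbers 1 to 4. The difference was near 0 in number 3 and most negative in number 4. With each pair as a block Heyl had -0.85 (adjusted p = 0.0762). Without a block, the spread between numbers counts as noise in these tests. With the number or with each pair as a block, 0 of the 9 genes were called in each condition. Pkm in SS cells had -0.57 with each pair as a block (edgeR's adjusted p = 0.0176). The counts of all genes under both blocks are given in the closing section.

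The average differences of the other targets were also negative, and none passed the threshold. The average log2 differences were -0.65 ± 0.48 (SE; adjusted p = 0.848) for Hey1, -0.56 ± 0.53 (SE; adjusted p = 0.89) for Hey2, -0.33 ± 0.27 (SE; adjusted p = 0.864) for Hes1 and -0.42 ± 0.44 (SE; adjusted p = 0.902) for Nrarp. Lower in iCre were 13 of 16 pairs for Hes1, 12 for Hey1, 12 for Hey2 and 9 for Nrarp. For Notch1 14 pairs were lower, for Notch2 10, for Notch3 9 and for Jag1 10. The 16 pairs share 4 numbers and are not independent, and such counts are not given for all genes. For each of Hes1, Hey1 and Hey2 the mean difference was most negative in numbers 2 and 4, and for Hes1 it was -0.11 and -0.01 in numbers 1 and 3. Hes1 alone of the 9 passed when each pair was a block, at -0.43 (adjusted p = 0.0377), where 5.86% of all genes passed. With counts summed over the conditions of each number it had -0.48 (adjusted p = 0.369). The receptors and the ligand had smaller average differences, with -0.16 ± 0.09 (SE; adjusted p = 0.792) for Notch1, 0.02 ± 0.13 (SE; adjusted p = 0.984) for Notch2, -0.09 ± 0.26 (SE; adjusted p = 0.97) for Notch3 and -0.15 ± 0.36 (SE; adjusted p = 0.962) for Jag1. No response to a stimulus differed between the vectors for any member or any gene by edgeR's interaction test. At an unadjusted p under 0.05 it listed 67, 93 and 201 genes for bFGF, IL-1b and TGFb, and DESeq2 75, 100 and 224. All of these counts are below the share of 0.05 that chance alone would give among the tested genes.

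**Figure D4:**
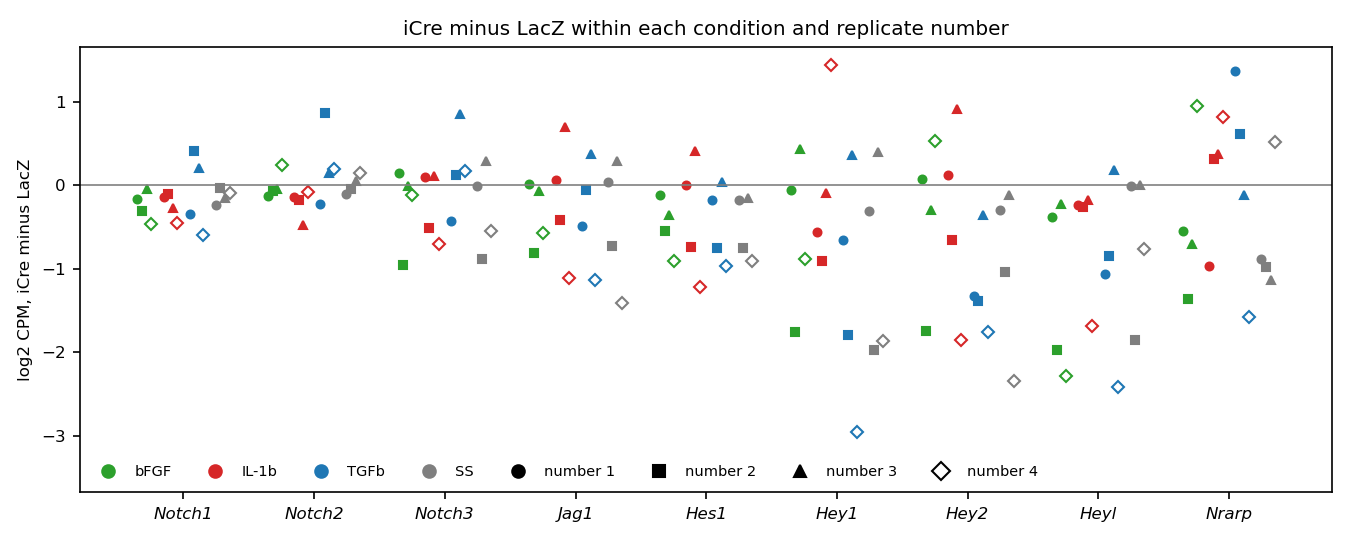
Difference in log2 CPM, iCre minus LacZ, between libraries of the same condition (colour) and number (symbol, open diamonds for number 4), for each of the 9 genes. For Heyl and for Notch1 14 of 16 differences are below 0 and for Hes1 13. For Heyl and Hes1 those of numbers 2 and 4 reach furthest down.

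Within groups, the members varied together by library number. Libraries numbered 4 had the lowest mean of the 4 numbers for Notch3, at 74.8 CPM beside 268, 184 and 254 CPM for numbers 1, 2 and 3 over 8 libraries each. For Jag1 the means were 35.7 CPM in number 4 and 187, 147 and 171 CPM in numbers 1, 2 and 3. For Hes1 they were 14.2 CPM in number 4 and 41.2, 36.4 and 38.9 CPM in the others, and for Hey2 0.485 CPM in number 4 and 5.84, 5.11 and 5.18 CPM. In number 4, all 8 libraries were below their group mean for Notch3, Jag1, Hes1 and Hey2. Notch2 alone ran the other way, at 264 CPM in number 4 beside 167, 177 and 159 CPM, and all 8 of its libraries were above their group mean. Of the 8 libraries numbered 4, 7 were below their group mean for Hey1, Nrarp and Notch1, and 6 for Heyl.

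After removal of group means, the Pearson correlation of log2 CPM over 32 libraries was 0.96 between Jag1 and Hey2, 0.94 between Jag1 and Notch3, 0.94 between Jag1 and Hes1, and 0.93 between Notch3 and Hey2. Notch2 had negative values with all 8 other members, from -0.41 with Notch1 to -0.82 with Jag1. With group means left in, Jag1 and Hey2 had 0.96 again, whereas Notch3 and Heyl had 0.22 and Notch3 and Jag1 0.62. These libraries share 4 numbers and the markers of fibroblasts and leukocytes described above move with the numbers, so the values are a description. Of the 8 fibroblast markers, Col1a1, Col1a2, Col3a1, Fn1 and Tcf21 had their lowest median in number 4, Pdgfra had its highest there, and Dcn and Lum lay between the other numbers. For Tcf21 the medians were 32.3 CPM in number 4 and 162, 128 and 121 CPM in numbers 1, 2 and 3, and for Pdgfra 1208 CPM and 507, 599 and 460.2 CPM. Of the 7 tested mural markers, Mcam, Cspg4, Des and Myh11 had their lowest median in number 4 and Kcnj8 and Abcc9 their highest, while Rgs5 had 82.4 CPM there, against 18.5, 209 and 16.9 CPM. The part of cell makeup in the pattern was not tested.

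**Figure D5:**
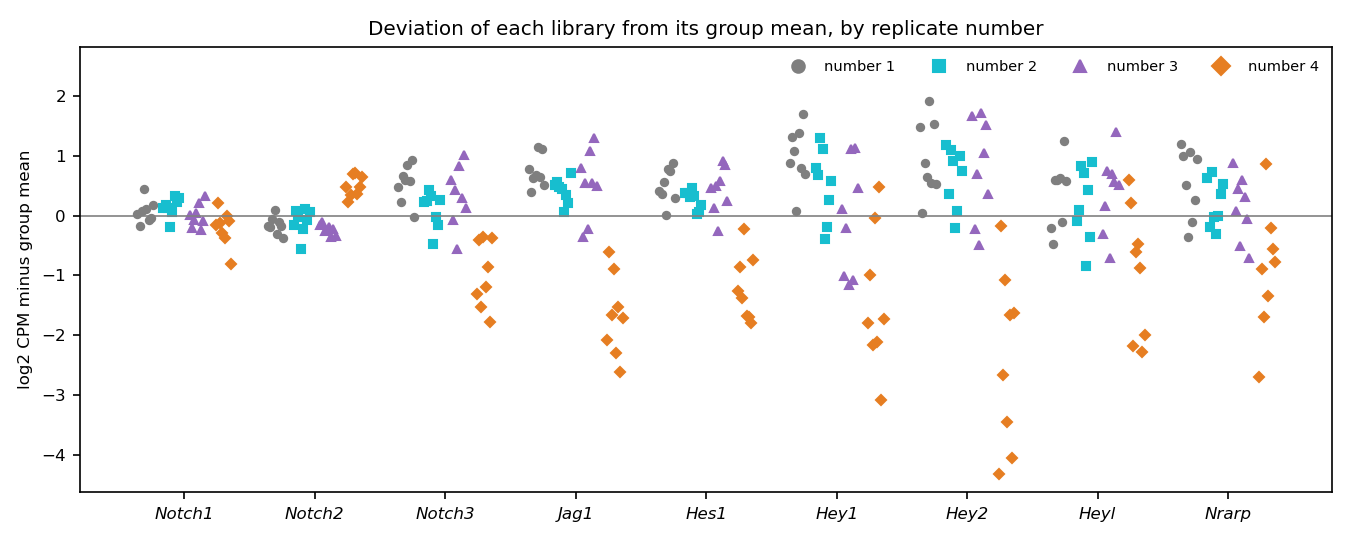
Deviation of each library's log2 CPM from the mean of its group of 4, for each of the 9 genes, with 8 libraries for each number (colour and symbol). Number 4 (orange diamonds) lies below 0 in all 8 libraries for Notch3, Jag1, Hes1 and Hey2, and above 0 in all 8 for Notch2.

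Of 47 other pathway genes, 41 were tested. Called higher and lower were 1 and 1 with bFGF in iCre and 0 and 1 in LacZ cells, 3 and 5 with IL-1b in iCre and 7 and 5 in LacZ cells, and 7 and 9 with TGFb in iCre and 7 and 12 in LacZ cells. Of all tested genes, 15.7% were called in either direction with IL-1b in iCre and 19.2% in LacZ cells, beside the shares for bFGF and TGFb given above. With the library number as a block the counts higher and lower were 1 and 2 with bFGF in each vector, 8 and 7 with IL-1b in iCre and 11 and 8 in LacZ cells, and 9 and 13 with TGFb in iCre and 7 and 16 in LacZ cells. Of all tested genes the block called 11.4% and 12.2% with bFGF, 29.0% and 32.3% with IL-1b and 51.6% and 58.4% with TGFb in iCre and LacZ cells. For iCre against LacZ, 0 of the 41 were called in any condition or on average without the block. With the block 1 was called on average, against 2.83% of all tested genes: Dlk1, an atypical ligand gene, was higher by 1.37 (adjusted p = 0.00639, edgeR), and had 1.55 ± 0.68 (SE; adjusted p = 0.65) without the block. The median log2 fold change of the tested genes was -0.04 and -0.01 with IL-1b and -0.14 and -0.17 with TGFb in iCre and LacZ cells, close to the -0.022 and -0.023, and -0.046 and -0.058, of all genes. Other ligands were scarce: Dll1 and Jag2 had median levels of 0.759 and 0.566 CPM over the 32 libraries and passed in no comparison without the block, and Dll3 and Dll4 were too low to test, with 7 and 59 counts in all. With the library number as a block, Jag2 was lower with TGFb in iCre (-1.31; edgeR's adjusted p = 0.0217) and LacZ cells (-1.36; adjusted p = 0.0191), and Dll1 in LacZ cells (-1.14; adjusted p = 0.0441). Notch4 was the only receptor of the list. With bFGF it had 2.42 ± 0.62 (SE; adjusted p = 0.0385) in iCre and 1.93 ± 0.61 (SE; adjusted p = 0.0889) in LacZ cells, and with IL-1b 1.69 ± 0.61 (SE; adjusted p = 0.0612) and 1.75 ± 0.61 (SE; adjusted p = 0.0432). With the library number as a block Notch4 passed in all 4 of these, with edgeR's adjusted p = 0.00106 and 0.00129 with bFGF and 0.0045 and 0.00132 with IL-1b. Without a block, the calls with bFGF in iCre and with IL-1b in LacZ cells were lost when some single libraries were left out, with adjusted p up to 0.15 and 0.251.

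Of pathway genes that passed in both vectors, up to 6 for a stimulus are named, by size of change. Maml2, a Mastermind coactivator, fell with bFGF by 0.86 ± 0.18 (SE; adjusted p = 0.0122) in iCre and 0.84 ± 0.18 (SE; adjusted p = 0.0107) in LacZ cells, and with IL-1b by 0.99 ± 0.18 (SE; adjusted p = 0.00025) and 0.88 ± 0.18 (SE; adjusted p = 0.000708). The ubiquitin ligase gene Neurl1b, whose product promotes uptake of ligands, had -1.44 and -2.02 with IL-1b and -2.91 and -3.36 with TGFb in iCre and LacZ cells. The gamma-secretase subunit gene Aph1c had -1.20 and -1.04 with IL-1b and -1.31 and -1.40 with TGFb, and Aph1b -0.76 and -0.86 with IL-1b. Aph1b and Aph1c are near-identical copies between which the counting could split reads, so their values are uncertain. Of 10 genes of receptor cleavage, 3 were called higher and 2 lower with IL-1b in iCre cells, and 4 and 2 in LacZ cells. Among those that rose in both vectors were the protease Adam17, by 0.79 and 0.85 and the gamma-secretase catalytic subunit gene Psen2, by 0.51 and 0.62. With TGFb the ubiquitin ligase gene Dtx4 had -1.73 and -2.03 and the Mastermind gene Maml3 -1.09 and -1.38. RBPJ itself, from Rbpj, had -1.04 ± 0.45 (SE; adjusted p = 0.0698) in iCre and -1.27 ± 0.46 (SE; adjusted p = 0.0236) in LacZ cells with TGFb, and with the block -1.06 (adjusted p = 0.000338) and -1.28 (adjusted p = 3.33e-05). Leaving out single libraries took the adjusted p of Rbpj in LacZ cells up to 0.0796, of Maml2 with bFGF up to 0.0657 in iCre and 0.0723 in LacZ cells, of Neurl1b with IL-1b in iCre cells up to 0.116 and of Maml3 with TGFb in iCre cells up to 0.188. Without number 4, Rbpj in LacZ cells had -1.11 (adjusted p = 0.108). The other stimuli went the opposite way for Rbpj. With IL-1b it averaged 184 ± 71.2 CPM in iCre and 198 ± 129 CPM in LacZ cells (SD, n = 4 each). With bFGF it averaged 182 ± 63.0 and 164 ± 56.3 CPM, against 124 ± 56.3 and 114 ± 51.0 CPM in SS. Without the block Rbpj was not called higher with either stimulus.

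Promoter windows of 300 bases, 250 before and 50 after the RefSeq start in GRCm38.p6, were at hand for 6 of the 9 genes: Notch1, Notch2, Notch3, Jag1, Hey2 and Nrarp. The Hey2 window is shown because Hey2 and Jag1 had the highest correlation of any pair of members and because it was the only one of the 6 with the RBPJ core TGGGAA, searched on both strands. It holds the core at 2 places, at bases -207 to -202 on the minus strand of the gene and at bases -3 to 3, across the start, where base 1 is the first transcribed base and there is no base 0. The stretch printed is chr10:30842781-30843033, minus strand, 5′ to 3′, with the matches in capitals:
Hey2: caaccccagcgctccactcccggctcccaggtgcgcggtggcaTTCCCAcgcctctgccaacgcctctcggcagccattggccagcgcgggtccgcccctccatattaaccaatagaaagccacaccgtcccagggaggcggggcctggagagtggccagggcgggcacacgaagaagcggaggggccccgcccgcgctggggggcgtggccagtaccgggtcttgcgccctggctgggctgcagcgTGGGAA
Of 32851 windows of the same length, 25.6% hold the core. The Nrarp window is shown for its E-box CACGTG, the kind of site bound by Hes and Hey class proteins, at bases -108 to -103. The stretch is chr2:25180508-25180757, plus strand, 5′ to 3′, with the match in capitals:
Nrarp: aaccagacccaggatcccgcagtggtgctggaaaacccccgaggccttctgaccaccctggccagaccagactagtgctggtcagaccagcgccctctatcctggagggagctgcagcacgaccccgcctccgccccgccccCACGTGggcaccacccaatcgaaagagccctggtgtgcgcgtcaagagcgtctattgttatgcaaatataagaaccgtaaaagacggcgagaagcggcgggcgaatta
The E-box is in 7.15% of the windows and in no other of the 6. The N-box CACNAG was found in the windows of Nrarp, Notch1, Notch2 and Notch3, against 42.5% of all windows, and the AP-1 site TGANTCA in none, against 7.81%. Matches describe letters only.

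Genes with the most similar pattern were ranked by Pearson's r of log2 CPM over the 32 libraries among 11652 protein-coding genes. For Notch3 they were Synm (0.954), Mylk3 (0.952) and Il15 (0.946), and for Jag1 Prkab2 (0.96), Smad6 (0.955) and S100b (0.948). For Notch1 they were Arhgap32 (0.946), Abca8a (0.925) and Smc1a (0.911), and for Notch2 Med13l (0.958), Patj (0.904) and Asxl1 (0.902). Among the targets, Hes1 was nearest to Map2 (0.943), Mxra7 (0.941) and Fhl2 (0.935), Hey1 to Plcl1 (0.923), Eif5a2 (0.91) and Gpc4 (0.901), and Hey2 to Pkig (0.937), Wwc1 (0.932) and Smad6 (0.926). Heyl was nearest to F2r (0.937), Sertad4 (0.935) and Jup (0.923). Nrarp, the least counted member, reached only 0.831 with Ankrd50, 0.819 with Cav2 and 0.811 with Rbms1. Smad6 was the only gene listed for more than 1 member, for Jag1 and Hey2.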

How the data were processed

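Poly(A) RNA of 32 libraries of cultured mouse cardiac fibroblasts was sequenced after library preparation with the NEBNext Ultra II kit, per the labels' protocols. The values are raw counts per gene, as the authors deposited them. The submitters' processing notes name FastQC 0.10.1, HTSeq 0.10.0 and the builds mm10 and GRCm38. Not given in the sources used here are the aligner, the strand setting, how reads were counted and which annotation release served. Of 55414 identifiers, 52133 matched a GENCODE M21 symbol and held 99.77% of the counts. There were 0 columns without a sample.

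Groups follow the titles. Differences were tested with edgeR 4.0.16 in R 4.3.3 (TMM factors, default filter by group, robust quasi-likelihood fits, 1 model with a mean for each of 8 groups). Tests were two-sided over 16760 genes and 14 contrasts, with Benjamini-Hochberg adjustment in each contrast and a threshold of 0.05. Adjusted p-values printed without another tool's name are edgeR's, alternatives such as the block included. Fold changes carry a standard error derived from edgeR's test, which prints none. It is the absolute log2 fold change divided by the square root of the test's F statistic. At 20736203 to 34995038 counts per library, Nrarp and, in some groups, Hey1 and Hey2 rested on few reads.

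Alternatives were DESeq2 1.42.0, scaling by total counts, no filter, the library number as a block, each iCre and LacZ pair of a condition as its own block, counts summed over conditions, no libraries of number 4, and each library left out in turn. Libraries of the same number deviated together from their group means: the correlation was 0.153 to 0.857 over 40 pairs, and 31 of 32 libraries were closest to others of their own number. The numbers therefore pair the libraries, and the titles give them without saying what they mark. No pair of libraries within a group agreed within sampling noise, since chi-square divided by degrees of freedom was at least 9.1 in all 48 pairs. The edgeR script was tested on simulated data.

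The members, gene lists and markers were chosen with earlier results of these data known. Named are all members, Pkm, other ligands and receptors, up to 6 pathway genes for a stimulus called in both vectors in the same direction, and the 3 genes most like each member. A gene that the rule names is not reported here. Rbpj, as the partner of the receptors, and marker genes given singly were chosen after their values were seen. Likeness used log2 CPM of protein-coding genes with a mean of at least 1 on that scale. Figures were drawn with matplotlib 3.10.9.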

Additional observations from a re-analysis of the deposited data

Results flagged for a closer look

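In each of 72 combinations of a gene and a group of 4 libraries, the highest and lowest library were set against the rest: the gap to the nearest value, as a share of the group's range, was compared with Dixon's critical value at 95%. It was larger in 8 of 72, where chance gives about 1 in 20. In 7 of the 8 the library was numbered 4. Notch2 was high in number 4 with 293.3 CPM in iCre SS, 291.5 CPM in iCre bFGF and 247.4 CPM in LacZ bFGF cells. Low values in number 4 were those of Jag1 in LacZ SS cells (56.81 CPM), Hes1 in LacZ bFGF cells (20.5 CPM) and iCre TGFb cells (18.28 CPM), and Heyl in LacZ SS cells (3.303 CPM). The remaining one was Notch1 in the iCre SS library numbered 2, at 64.37 CPM, above the other 3 of its group at 51.58 to 53.49 CPM.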

How the results depend on the processing

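With the library number as a block, the pairing that the correlations show, the count of all genes called was 1916 in iCre and 2048 in LacZ cells for bFGF, 4868 and 5418 for IL-1b, 1 for iCre against LacZ with bFGF, 5 with TGFb and 475 on average, against 368, 429, 2634, 3216, 0, 0 and 18 without it. Turns of sign are listed here for responses to a stimulus and for average differences between the vectors. Some vector differences within a condition and some interactions turned as well. The block turned the sign of Heyl with bFGF in iCre cells to 0.05, of Hes1 with TGFb in iCre cells to 0.19 and of Hey1 with TGFb in LacZ cells to 0.21. Beyond the member and pathway calls given with the block above, it changed no call of a member. A block for each pair gave 14 genes in SS, 15 with bFGF, 46 with TGFb, and on average 982 genes with 1 member, but treats 16 pairs that share 4 numbers as independent, and summed counts gave 9 genes. Without number 4, 2 members were called with bFGF in each vector, 4 in iCre and 6 in LacZ cells with TGFb, and 2621, 1638, 4280, 4874 and 114 genes for bFGF in iCre and LacZ, IL-1b in iCre and LacZ, and the average. It turned the sign of Heyl with bFGF in LacZ cells to -0.06, of Hes1 with TGFb in LacZ cells to -0.13 and of the average difference of Notch2 to -0.03. DESeq2 called 856, 881 and 85 genes for bFGF in iCre, bFGF in LacZ and the average, and no filter gave 190 and 212 for bFGF. With total counts alone, 1918 genes were higher and 4630 lower with TGFb in iCre cells (3378 and 3039 with TMM), 2553 and 5078 in LacZ cells (3925 and 3834), and 1375 and 1625 with IL-1b in LacZ cells (1853 and 1363). Total counts gave Nrarp -0.00 in iCre and Hes1 -0.11 in LacZ cells with TGFb. The cause of these shifts was not tested.

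Leaving out each library in turn gave 40 to 1176 and 73 to 936 genes for bFGF in iCre and LacZ cells, 7 to 25 for the average, and 3 to 7 members for IL-1b in iCre cells. Signs turned within -0.50 to 0.29 for Heyl with bFGF in iCre cells, with TGFb within -0.30 to 0.17 for Notch2, -0.34 to 0.21 for Hes1 and -0.33 to 0.53 for Nrarp in iCre cells, -0.21 to 0.20 for Hes1 and -0.76 to 0.14 for Hey1 in LacZ cells, and within -0.05 to 0.10 for the average difference of Notch2. Vector differences within a condition also turned, such as those in SS cells of Notch3 (-0.45 to 0.19) and Jag1 (-0.47 to 0.25). Few reads limit Nrarp, with 261 counts over the 32 libraries.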
